A study of Homo sapiens with 16 samples.

Results

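SGK1 and 6 other genes known to respond to glucocorticoids, TSC22D3, FKBP5, KLF9, PER1, ZBTB16 and CEBPD, were followed in T47D cells, 7 of the 78894 genes and other features measured. SGK1 was chosen by its measured rise with abemaciclib in both genotypes, so its differences between drug and vehicle, and the difference between those in the 2 genotypes, are given as a description with no test. The other 6 genes were added as responders to the same hormone. T47D is a long-established luminal line from a human breast cancer, and every library came from it. RNA was sequenced from 4 groups of 4 libraries: FAH knockout cells with 500 nM abemaciclib, control cells with 500 nM abemaciclib, FAH knockout cells with vehicle and control cells with vehicle. Treatment lasted 3 days. FAH encodes the last enzyme of tyrosine breakdown, control cells carried a control guide, and abemaciclib inhibits the cell cycle kinases CDK4 and CDK6. All groups grew in high-glucose DMEM with 10% fetal bovine serum, and whether the knockout cells were 1 clone or a pool is not given in the sources used here. No group received an added glucocorticoid, as far as the labels say.

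Glucocorticoids such as cortisol enter the cell and bind the glucocorticoid receptor (NR3C1), which moves to the nucleus and turns on genes that carry its response element. The mineralocorticoid and progesterone receptors (NR3C2 and PGR) recognise the same kind of DNA element. SGK1, serum- and glucocorticoid-regulated kinase 1, is a relative of AKT. It is switched on downstream of PI3-kinase and the mTOR complex that contains RICTOR, and it phosphorylates FOXO factors, NDRG1 and the ubiquitin ligase NEDD4L. Its mRNA also answers serum, osmotic stress and other signals. The other 6 genes encode the leucine zipper protein GILZ (TSC22D3), a co-chaperone that holds the receptor in a state of low hormone affinity (FKBP5), and 4 regulators of transcription. Those are KLF9, the clock repressor PER1, the zinc finger factor ZBTB16 (also called PLZF) and the C/EBP factor CEBPD.

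The RefSeq promoter table of GRCh38.p14 held 11 windows for 5 of the 7 genes, and the 250 bases before the transcription start were searched in each. SGK1 had 3 windows, TSC22D3 had 4, FKBP5 had 2, and KLF9 and PER1 had 1 each. The full glucocorticoid response element (TGTTCT with its reverse complement AGAACA ahead of it and 3 free bases between), a looser form with fewer fixed bases, the single site TGTTCT and the cAMP response element TGACGTCA had no match on either strand in any of the 11 windows. Over all 35116 windows of the table these were found in 0.00285%, 0.327%, 12.4% and 1.65%. The E-box CACGTG, at which the clock factors bind, was in 6.34% of all windows, the forkhead site GTAAACA in 2.98% and the CCAAT box in 32.0%. The windows printed here are the 4 with any match and, for comparison, that of the innermost SGK1 start, which like the other SGK1 windows had none of the 7 motifs. Each runs 5′ to 3′ along the gene's own strand, which is the minus strand for these 5 genes, and capitals mark the matches.
SGK1, chr6:134174867-134175116: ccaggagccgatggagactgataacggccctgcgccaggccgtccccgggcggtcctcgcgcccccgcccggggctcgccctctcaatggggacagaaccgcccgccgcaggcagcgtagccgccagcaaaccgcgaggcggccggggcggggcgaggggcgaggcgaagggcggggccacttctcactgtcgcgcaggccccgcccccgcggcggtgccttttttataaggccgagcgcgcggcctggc
TSC22D3, chrX:107717063-107717312: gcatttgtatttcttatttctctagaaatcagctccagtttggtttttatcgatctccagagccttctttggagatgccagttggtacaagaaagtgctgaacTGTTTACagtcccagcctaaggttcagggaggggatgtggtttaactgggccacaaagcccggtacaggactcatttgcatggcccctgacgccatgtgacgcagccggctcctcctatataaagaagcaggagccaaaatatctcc
FKBP5, chr6:35688916-35689165: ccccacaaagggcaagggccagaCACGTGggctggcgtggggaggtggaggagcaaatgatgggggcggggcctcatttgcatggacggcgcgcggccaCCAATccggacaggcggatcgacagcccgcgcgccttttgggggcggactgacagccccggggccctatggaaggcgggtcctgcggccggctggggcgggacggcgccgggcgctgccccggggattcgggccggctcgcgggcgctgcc
KLF9, chr9:70414658-70414907: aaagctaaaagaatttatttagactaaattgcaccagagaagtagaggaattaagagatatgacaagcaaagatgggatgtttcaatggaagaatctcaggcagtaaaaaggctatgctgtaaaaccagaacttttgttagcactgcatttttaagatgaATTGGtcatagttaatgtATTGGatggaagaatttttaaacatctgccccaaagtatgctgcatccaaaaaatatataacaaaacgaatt
PER1, chr17:8152405-8152654: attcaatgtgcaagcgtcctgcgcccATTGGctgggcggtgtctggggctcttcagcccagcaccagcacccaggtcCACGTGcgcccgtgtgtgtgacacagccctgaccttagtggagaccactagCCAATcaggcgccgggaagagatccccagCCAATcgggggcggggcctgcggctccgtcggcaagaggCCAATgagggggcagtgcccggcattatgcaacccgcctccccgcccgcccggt
In TSC22D3 the capitals are 1 forkhead site on the opposite strand, in FKBP5 an E-box followed by a CCAAT box, and in KLF9 2 CCAAT boxes on the opposite strand. PER1 held 1 E-box and 4 CCAAT boxes, the first of them on the opposite strand. A match is a run of letters and not a measured binding site. Bases outside these windows were not searched, so the lack of a match does not show that a gene lacks the element.

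Depth was 9915776 to 11963093 assigned reads per library, so that 1 CPM (1 count per 1000000 assigned reads) stands for about 10 reads. Expression is given in CPM, which is not adjusted for gene length, and fold changes are differences of mean log2(CPM + 1), which understates changes of low genes. The labels do not say whether replicate libraries are separate cultures, so the p-values measure only the spread among these libraries, and that spread may be technical. FAH was lower in every knockout library than in any control library, at 5.76 ± 0.744 CPM in knockout cells against 24.0 ± 1.35 CPM in control cells with abemaciclib, and at 6.65 ± 0.323 against 26.5 ± 1.57 CPM with vehicle (SD, n = 4 each). All 9 luminal markers were at 1 CPM or more in every group. Their summed level was 15742 to 16012 CPM in knockout and 11231 to 11675 CPM in control libraries with abemaciclib, and 13085 to 13482 CPM in knockout and 9415 to 9582 CPM in control libraries with vehicle. KRT8, KRT18 and KRT19 carried most of that sum, and the 9 markers did not move together. In knockout cells 4 were called higher and 4 lower with abemaciclib, beside 18.6% and 11.3% of all 16218 tested genes. With vehicle 5 were higher and 4 lower, beside 24.6% and 13.1%. ESR1 (-0.34 with abemaciclib and -0.35 with vehicle) and GATA3 (-0.26 and -0.31) were among those lower. Of the 7 basal and mesenchymal markers, COL1A1 and VIM were well above 1 CPM in every library, while KRT5 and KRT14 stayed under 0.1 CPM. That list summed to 73.5 to 79.9 CPM in knockout and 68.3 to 77.7 CPM in control libraries with abemaciclib, and to 64.3 to 71.9 CPM in knockout and 56.0 to 59.7 CPM in control libraries with vehicle. Both sums moved with genotype and drug, and their part in the results on the 7 genes was not tested.

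SGK1 (ENSG00000118515, chr6:134169246-134318112 of GRCh38, minus strand) was highest in knockout cells with abemaciclib and lowest in control cells with vehicle. With abemaciclib it was at 9.79, 8.68, 10.3 and 8.53 CPM in the knockout libraries and at 7.47, 8.23, 8.92 and 6.17 CPM in the control libraries. With vehicle it was at 3.34, 4.29, 4.03 and 3.14 CPM in the knockout libraries and at 2.02, 1.39, 2.42 and 1.60 CPM in the control libraries. The order of the group means was 9.32 ± 0.849 CPM in knockout cells with abemaciclib, 7.70 ± 1.18 CPM in control cells with abemaciclib, 3.70 ± 0.546 CPM in knockout cells with vehicle and 1.86 ± 0.457 CPM in control cells with vehicle (SD, n = 4 each). The 2 abemaciclib groups, first and second in that order, overlapped in their libraries, and no other neighbours did. In bulk RNA a change of level per cell and a change in the share of cells with the transcript cannot be told apart.

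**Figure D1:**
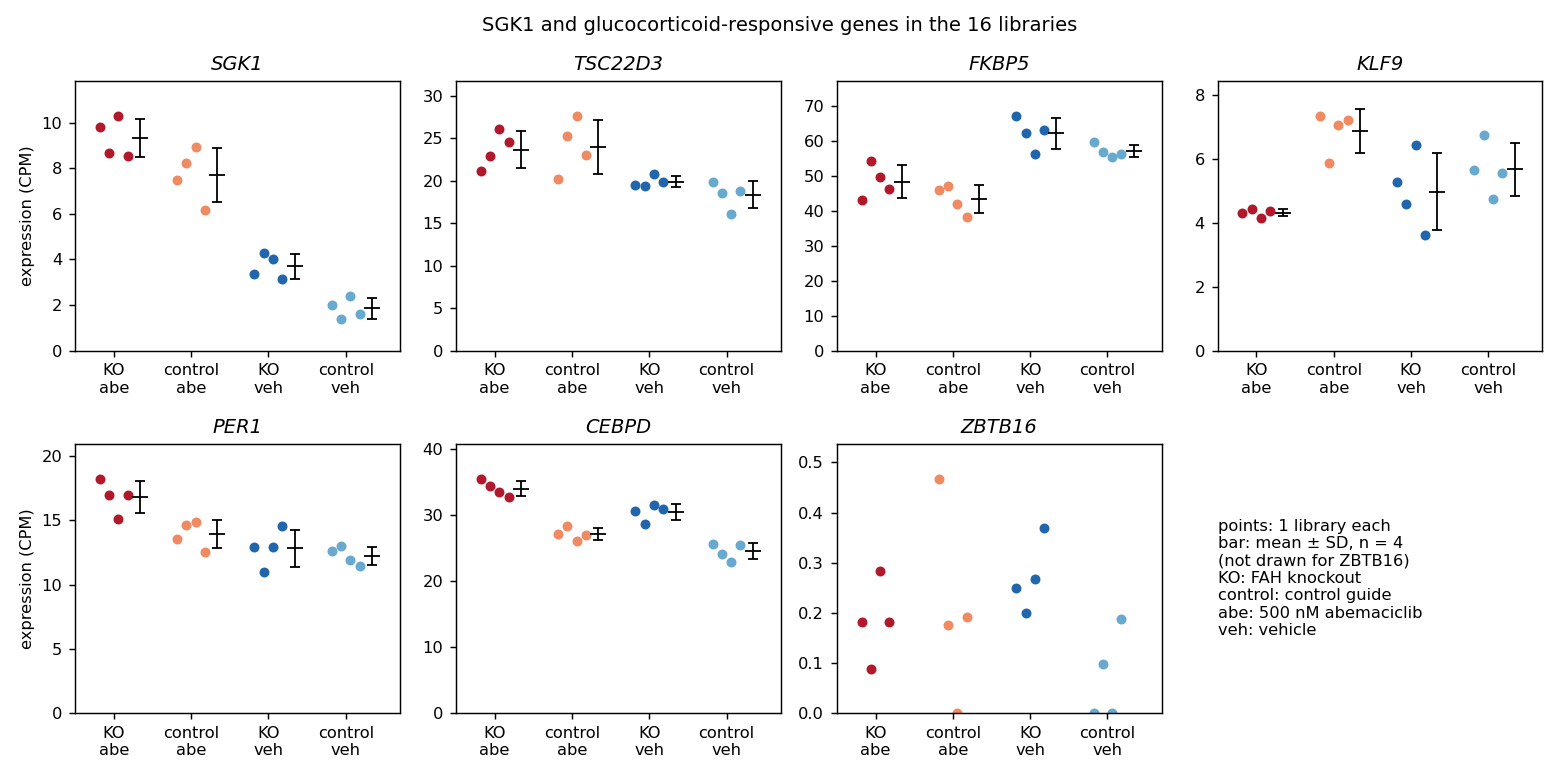
Expression of SGK1 and the other 6 genes (vertical axes, CPM, each from 0) in the 16 libraries, by group; points are libraries and bars are mean ± SD (n = 4), not drawn for ZBTB16. SGK1 stood at 6.17 to 10.3 CPM in the abemaciclib libraries and at 1.39 to 4.29 CPM in the vehicle libraries, FKBP5 was lower with abemaciclib in both genotypes, and ZBTB16 stayed below 0.5 CPM.

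The abemaciclib mean of SGK1 was 2.52 times the vehicle mean in knockout cells (log2 fold change 1.14) and 4.15 times in control cells (1.61). These are the values by which the gene was chosen. Of the 16218 tested genes, 6 had a larger increase in knockout cells and 5 in control cells. In reads, SGK1 was a low gene, with 94 to 121 reads in a knockout library and 64 to 105 in a control library with abemaciclib, and 34 to 45 in a knockout library and 14 to 24 in a control library with vehicle. In control cells with vehicle the spread between libraries (coefficient of variation 24.6%) was about what counting error alone gives (23.1%).

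SGK1 was higher in knockout cells under vehicle. The vehicle mean in knockout cells was 1.99 times that in control cells, a log2 fold change of 0.73 (SE 0.120, limma adjusted p = 9.8e-06). All 4 knockout libraries lay above all 4 control libraries, and 35.0% of all tested genes had no overlap here in either direction. The exact permutation test, two-sided, had p = 0.0286, the smallest that 70 assignments allow. Of the tested genes, 252 had a larger increase in this comparison. With abemaciclib the knockout mean was 1.21 times the control mean (log2 fold change 0.25, SE 0.120, 95% interval 0.010 to 0.50), which did not pass the test (limma adjusted p = 0.111, exact two-sided permutation p = 0.0857). The 95% interval of the vehicle difference was 0.48 to 0.97. The 2 genotype differences were not tested against each other, since that contrast equals the one between the increases that chose the gene. Both genotype differences share their libraries with those increases, so their p-values are not independent of the choice of the gene.

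The log2 increase of SGK1 with drug in knockout cells minus that in control cells was -0.47. It is the difference of the 2 increases that chose the gene, so it is a description as well, with no test. It was -0.70 with a pseudocount of 0.1 and -0.58 with one of 0.5, in place of 1.

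TSC22D3 (ENSG00000157514, chrX:107713221-107777342, minus strand), whose product GILZ restrains NF-κB and AP-1, was modestly higher with abemaciclib in both genotypes. In knockout cells it was at 21.1, 22.9, 26.1 and 24.6 CPM with abemaciclib and at 19.6, 19.4, 20.9 and 19.9 CPM with vehicle. In control cells it was at 20.2, 25.3, 27.6 and 23.0 CPM with abemaciclib and at 19.9, 18.5, 16.1 and 18.9 CPM with vehicle. Within each genotype all abemaciclib libraries lay above all vehicle libraries (35.9% of all tested genes had no overlap in knockout and 42.8% in control cells). The lowest abemaciclib library was, however, close to the highest vehicle library. The log2 fold change with drug was 0.23 in knockout cells (SE 0.0778, limma adjusted p = 0.0160) and 0.37 in control cells (limma adjusted p = 1.7e-04). The call in knockout cells was lost without knockout abemaciclib replicate 3 (0.19, adjusted p = 0.0766) and without a filter on low values (adjusted p = 0.0868). Knockout and control cells overlapped under both treatments, with log2 differences of -0.015 with abemaciclib (95% interval -0.17 to 0.14) and 0.12 with vehicle (-0.042 to 0.27).

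FKBP5 (ENSG00000096060, chr6:35573585-35728583, minus strand), a classical glucocorticoid-induced gene and part of the receptor's feedback loop, went the other way from SGK1 with the drug. In knockout cells it was at 43.3, 54.4, 49.7 and 46.2 CPM with abemaciclib and at 67.2, 62.3, 56.5 and 63.2 CPM with vehicle. In control cells it was at 46.1, 47.04, 41.9 and 38.3 CPM with abemaciclib and at 59.7, 56.9, 55.5 and 56.4 CPM with vehicle. All 8 abemaciclib libraries lay below all 8 vehicle libraries (within a genotype, 35.9% of all tested genes had no overlap in knockout and 42.8% in control cells). The gene fell by 0.36 log2 units in knockout cells (SE 0.0623, limma adjusted p = 1.7e-05) and by 0.40 in control cells (limma adjusted p = 2.3e-06). Between genotypes the differences were 0.16 with abemaciclib (limma adjusted p = 0.0581) and 0.12 with vehicle (limma adjusted p = 0.133). Neither genotype difference passed, but each crossed the threshold in some alternatives, such as leaving out knockout abemaciclib replicate 1 (0.21, adjusted p = 0.0147) or knockout vehicle replicate 3 (0.17, adjusted p = 0.0490).

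KLF9 (ENSG00000119138, chr9:70384597-70414624, minus strand), a Krüppel-like factor that glucocorticoids induce in many cell types, differed between genotypes under abemaciclib. With abemaciclib it was at 4.30, 4.43, 4.16 and 4.36 CPM in knockout libraries and at 7.33, 5.87, 7.05 and 7.22 CPM in control libraries, with no overlap (26.6% of all tested genes had none). With vehicle it was at 5.27, 4.59, 6.45 and 3.60 CPM in knockout libraries and at 5.65, 6.74, 4.74 and 5.56 CPM in control libraries, and these overlapped. The log2 difference was -0.56 with abemaciclib (SE 0.118, limma adjusted p = 3.4e-04) and -0.17 with vehicle (limma adjusted p = 0.262). The interaction was -0.39 (95% interval -0.73 to -0.052) and did not pass (limma adjusted p = 0.138), although it did without knockout vehicle replicate 4 (-0.51, adjusted p = 0.0371). With drug KLF9 differed by -0.15 in knockout cells (limma adjusted p = 0.341) and by 0.24 in control cells (limma adjusted p = 0.0864), and the control value passed after median-of-ratios rescaling (0.30, adjusted p = 0.0279).

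PER1 (ENSG00000179094, chr17:8140472-8156506, minus strand), a period protein of the circadian clock whose gene glucocorticoids induce directly, was highest in knockout cells with abemaciclib. It was at 18.2, 16.9, 15.1 and 17.0 CPM in these libraries, against 13.5, 14.6, 14.9 and 12.5 CPM in control libraries with abemaciclib. With vehicle it was at 12.9, 10.97, 12.9 and 14.5 CPM in knockout libraries and at 12.6, 12.99, 11.9 and 11.4 CPM in control libraries. Knockout libraries with abemaciclib lay above all other libraries (no overlap for 26.6% of all tested genes between genotypes with abemaciclib and 35.9% between treatments in knockout cells). The log2 fold change with drug was 0.37 in knockout cells (SE 0.0805, limma adjusted p = 3.9e-04) and 0.17 in control cells (limma adjusted p = 0.0782; 0.24 and adjusted p = 0.0126 after median-of-ratios rescaling). Knockout against control gave 0.26 with abemaciclib (limma adjusted p = 0.0142) and 0.059 with vehicle (limma adjusted p = 0.599). The abemaciclib call was lost without knockout abemaciclib replicate 1 (0.22, adjusted p = 0.0567) or control abemaciclib replicate 4 (0.21, adjusted p = 0.0622).

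CEBPD (ENSG00000221869, chr8:47736909-47739086, minus strand), a C/EBP factor that cytokines and STAT3 also induce, was higher in knockout cells under both treatments. With abemaciclib it was at 35.5, 34.4, 33.5 and 32.7 CPM in knockout libraries and at 27.2, 28.4, 26.1 and 27.0 CPM in control libraries. With vehicle it was at 30.7, 28.7, 31.5 and 30.9 CPM in knockout libraries and at 25.6, 24.1, 23.0 and 25.5 CPM in control libraries. Every knockout library lay above every control library, whatever the treatment (no overlap between genotypes for 26.6% of all tested genes with abemaciclib and 35.0% with vehicle). The log2 difference was 0.31 with abemaciclib (SE 0.0544, limma adjusted p = 2.7e-05) and 0.30 with vehicle (limma adjusted p = 3.9e-05), and the interaction was 0.014 (95% interval -0.14 to 0.17). With drug CEBPD rose by 0.16 in knockout cells (limma adjusted p = 0.0226) and by 0.14 in control cells (limma adjusted p = 0.0294). The drug calls were close to the threshold, being lost in knockout cells without knockout vehicle replicate 2 (0.13, adjusted p = 0.0873) or knockout abemaciclib replicate 1 (0.13, adjusted p = 0.0728). In control cells they were lost without control vehicle replicate 2 (0.13, adjusted p = 0.0634), control vehicle replicate 3 (0.11, adjusted p = 0.114) or control abemaciclib replicate 2 (0.12, adjusted p = 0.0905).

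ZBTB16 (ENSG00000109906, chr11:114059593-114250676, plus strand), which glucocorticoids and progestins induce strongly in responsive cells, was barely detected. It was at 0.183, 0.0885, 0.283 and 0.182 CPM in knockout and 0.467, 0.175, 0 and 0.193 CPM in control libraries with abemaciclib. With vehicle it was at 0.251, 0.199, 0.269 and 0.370 CPM in knockout and 0, 0.0992, 0 and 0.189 CPM in control libraries. A level of 3 reads, the limit that a count of 0 allows for counting error, is 0.251 to 0.303 CPM in these libraries, and 3 of the 16 libraries had more than 3 reads. The gene did not reach the filter of 1 CPM in 4 libraries, was not tested and gets no fold change.

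**Figure D2:**
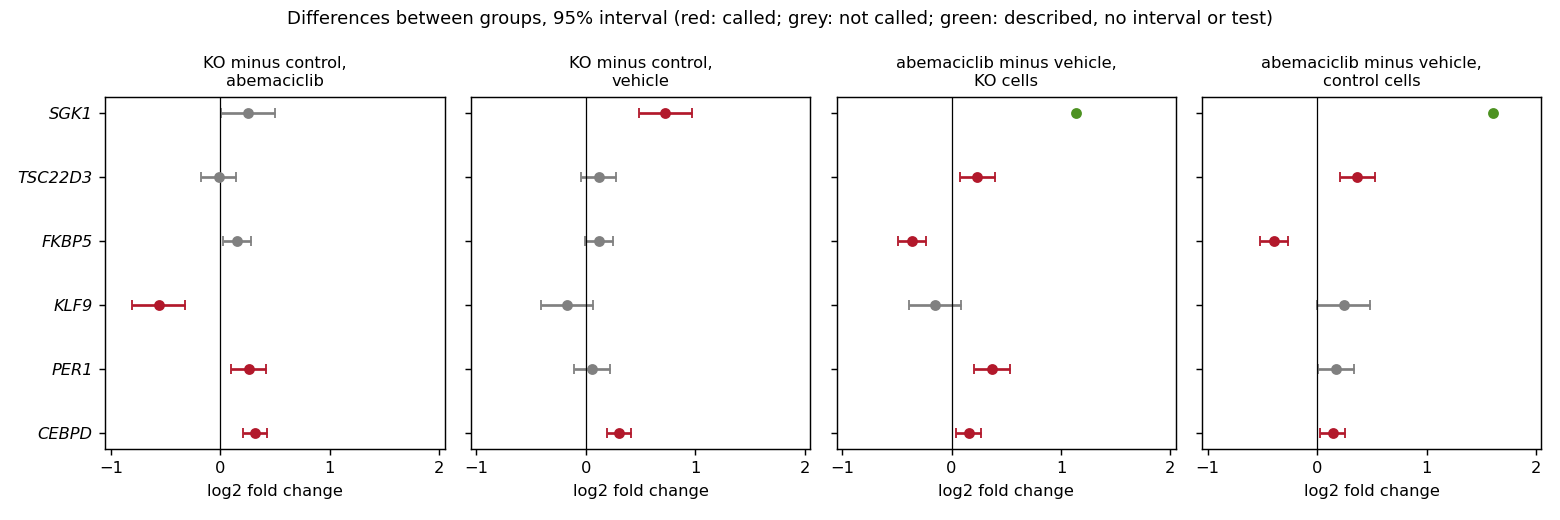
Log2 fold changes of the 6 tested genes (horizontal axes) in the 4 comparisons, each with its 95% interval; red marks a limma adjusted p under 0.05, grey a difference that did not pass, and green the SGK1 drug differences, which chose the gene and have no interval or test. FKBP5 lies left of 0 in both drug panels (-0.36 in knockout and -0.40 in control cells), and SGK1 has the largest genotype difference under vehicle (0.73).

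The counts of tested genes called in each comparison stand here beside the share of all tested genes that was called. Knockout against control with abemaciclib called CEBPD and PER1 higher and KLF9 lower, 3 of 6, while 29.9% of all tested genes were called (18.6% higher and 11.3% lower). With vehicle it called SGK1 and CEBPD higher, 2 of 6, with 37.7% of all tested genes called (24.6% higher, 13.1% lower). The libraries of the SGK1 call are also those of the increases that chose the gene. Without SGK1, the drug called 3 of 5 genes higher and 1 lower in knockout cells (all tested genes 38.4%; 11% higher, 27.4% lower). In control cells it called 2 of 5 higher and 1 lower (all tested genes 50.7%; 19.6% higher, 31.1% lower). The limma interaction called 0 of 5 genes, again without SGK1 (all tested genes 10.8%; 4.68% higher, 6.16% lower), with 1 gene, KLF9, at an unadjusted p under 0.05. The interactions of TSC22D3, FKBP5 and PER1 were -0.13 (limma adjusted p = 0.521), 0.035 (0.865) and 0.20 (0.305). These comparisons share groups of libraries and are therefore not independent of each other. The split of calls over all genes depended on the scaling. In knockout cells the drug called 1780 genes higher and 4444 lower as deposited, 3173 and 2886 after median-of-ratios rescaling, and 3578 and 2715 after quantile normalization. In control cells the drug called 3181 higher and 5039 lower, 4166 and 4017 after rescaling, and 4380 and 3849 after quantile normalization. Knockout against control called 3020 higher and 1837 lower with abemaciclib, 2126 and 2408 after rescaling, and 2294 and 2274 after quantile normalization. With vehicle it called 3987 and 2121, 2825 and 2983 after rescaling, and 2875 and 2830 after quantile normalization.

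The glucocorticoid receptor gene NR3C1 was a little lower with abemaciclib, at 11.7 ± 0.295 against 14.5 ± 1.02 CPM in knockout cells and at 13.5 ± 1.47 against 16.1 ± 0.307 CPM in control cells (abemaciclib against vehicle, SD, n = 4 each). It fell by 0.28 log2 units in knockout cells (limma adjusted p = 0.0029) and by 0.24 in control cells (limma adjusted p = 0.0064), calls that were lost under quantile normalization (-0.16 with adjusted p = 0.0919 and -0.16 with adjusted p = 0.0683). Its genotype differences were -0.18 with abemaciclib (limma adjusted p = 0.0675) and -0.14 with vehicle (limma adjusted p = 0.133), and both passed after median-of-ratios rescaling (-0.22, adjusted p = 0.0208, and -0.20, adjusted p = 0.0283).

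The mineralocorticoid receptor gene NR3C2 was low, at 0.779 ± 0.240 CPM in the knockout and 1.35 ± 0.150 CPM in control cells with abemaciclib, and at 0.979 ± 0.133 CPM in the knockout and 1.23 ± 0.317 CPM in control cells with vehicle (SD, n = 4 each). Its knockout difference with abemaciclib was -0.41 (limma adjusted p = 0.0181), from 6 to 11 reads in a knockout and 12 to 17 in a control library. Every knockout library with abemaciclib was under 1 CPM, and the gene passed the filter through its control libraries. The call was lost without knockout abemaciclib replicate 1 (adjusted p = 0.0681) or replicate 3 (adjusted p = 0.0630), and without a filter on low values (adjusted p = 0.0691).

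The progesterone receptor gene PGR averaged 875 ± 17.1 CPM in knockout cells and 1071 ± 43.6 CPM in control cells with abemaciclib, and 667 ± 7.83 CPM in the knockout and 736 ± 11.8 CPM in control cells with vehicle (SD, n = 4 each). It rose with the drug by 0.39 in knockout cells (limma adjusted p = 1.6e-13) and by 0.54 in control cells (limma adjusted p = 2.2e-17), and the interaction was -0.15 (limma adjusted p = 0.0129; 0.115 without a variance trend). In knockout cells it fell by 0.29 with abemaciclib (limma adjusted p = 6.2e-10) and by 0.14 with vehicle (limma adjusted p = 1.3e-04), the vehicle call being lost under quantile normalization (-0.053, adjusted p = 0.198). PGR values were whole reads in only 8 of the 16 libraries, so part of its reads may be shared with another gene.

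**Figure D3:**
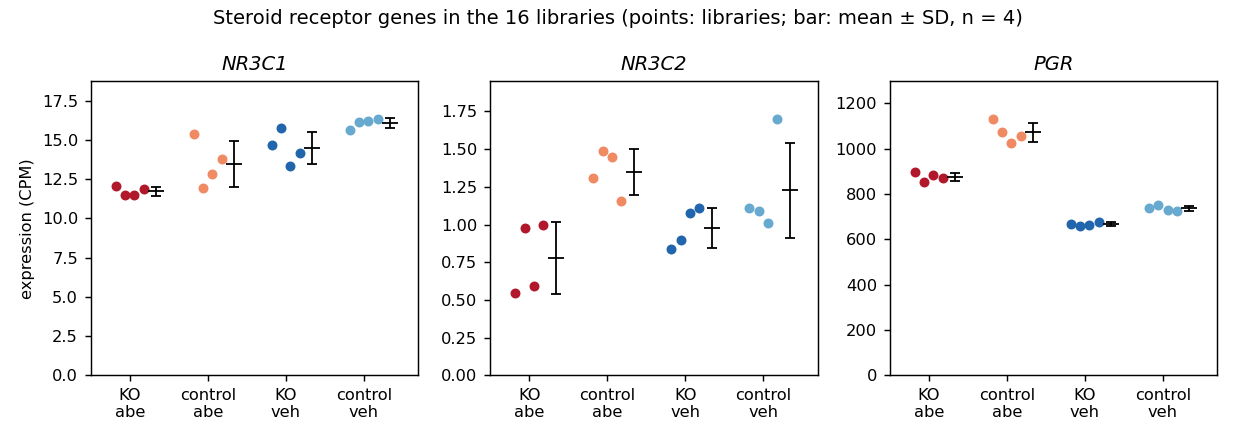
Expression of the steroid receptor genes NR3C1, NR3C2 and PGR (vertical axes, CPM, each from 0) in the 16 libraries by group; points are libraries and bars are mean ± SD (n = 4). PGR was at 875 and 1071 CPM on average in knockout and control cells with abemaciclib and at 667 and 736 CPM with vehicle, whereas NR3C1 was lower with abemaciclib, at 11.7 and 13.5 CPM against 14.5 and 16.1 CPM.

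Among 34 further genes that glucocorticoids are known to induce, 26 passed the filter, and they moved in both directions. With abemaciclib 7 rose and 5 fell in knockout cells (median log2 fold change -0.041, against -0.068 over all tested genes), where 11% of all tested genes rose and 27.4% fell. In control cells 9 rose and 5 fell (0.074 against -0.051), with 19.6% and 31.1% of all tested genes. The median in knockout cells changed sign with the scaling, to 0.040 after median-of-ratios rescaling and 0.046 after quantile normalization. DUSP1, a phosphatase that shuts off MAP kinases, was at 45.6 CPM with abemaciclib against 29.0 CPM with vehicle in knockout cells, and at 44.0 against 20.8 CPM in control cells. Its log2 fold changes of 0.64 and 1.04 differed (interaction -0.41, limma adjusted p = 5.0e-04). DDIT4, an inhibitor of mTOR signalling, rose by 0.59 in knockout and 0.61 in control cells, and RHOB, a small GTPase, by 0.35 and 0.45. The metallothionein MT2A, a classical target of the receptor, fell by 1.40 in knockout cells (48.7 against 130 CPM) and by 1.55 in control cells (42.6 against 127 CPM). MT1X fell as well, by 0.55 and 1.01, but many of its values were not whole reads, and metallothioneins are near-identical copies of each other.

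In knockout against control cells 9 of these genes were higher and 3 lower with abemaciclib (median 0.073, against 0.037 over all tested genes), beside 18.6% and 11.3% of all tested genes. With vehicle 11 were higher and 3 lower (0.19 against 0.056; 10 higher and 8 lower after quantile normalization), beside 24.6% and 13.1% of all tested genes. NFKBIA, which encodes the NF-κB inhibitor IκBα, was at 250.4 CPM in knockout against 92.2 CPM in control cells with abemaciclib, and at 249.3 against 93.3 CPM with vehicle (log2 fold changes 1.43 and 1.41). TNFAIP3, another brake on NF-κB, was at 1.67 against 0.483 CPM with abemaciclib and 2.29 against 0.445 CPM with vehicle (log2 fold changes 0.87 and 1.18). Its control means were not far above the level of 3 reads (0.251 to 0.303 CPM), and it passed the filter through its knockout libraries. BIRC3, an inhibitor of apoptosis, rose by 0.88 and 1.12. These 3 genes are induced by NF-κB as well as by glucocorticoids. GLUL, glutamine synthetase, was at 171 against 117 CPM with abemaciclib and 177 against 98.9 CPM with vehicle (log2 fold changes 0.54 and 0.83, from partly shared reads). PDK4, a kinase that limits pyruvate use, fell by 0.67 with abemaciclib, and its vehicle difference of -0.40 was lost without knockout vehicle replicate 4 (adjusted p = 0.109) or control vehicle replicate 4 (adjusted p = 0.0650). ANGPTL4, an inhibitor of lipoprotein lipase, fell in knockout cells by 0.74 with abemaciclib and 0.34 with vehicle.

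**Figure D4:**
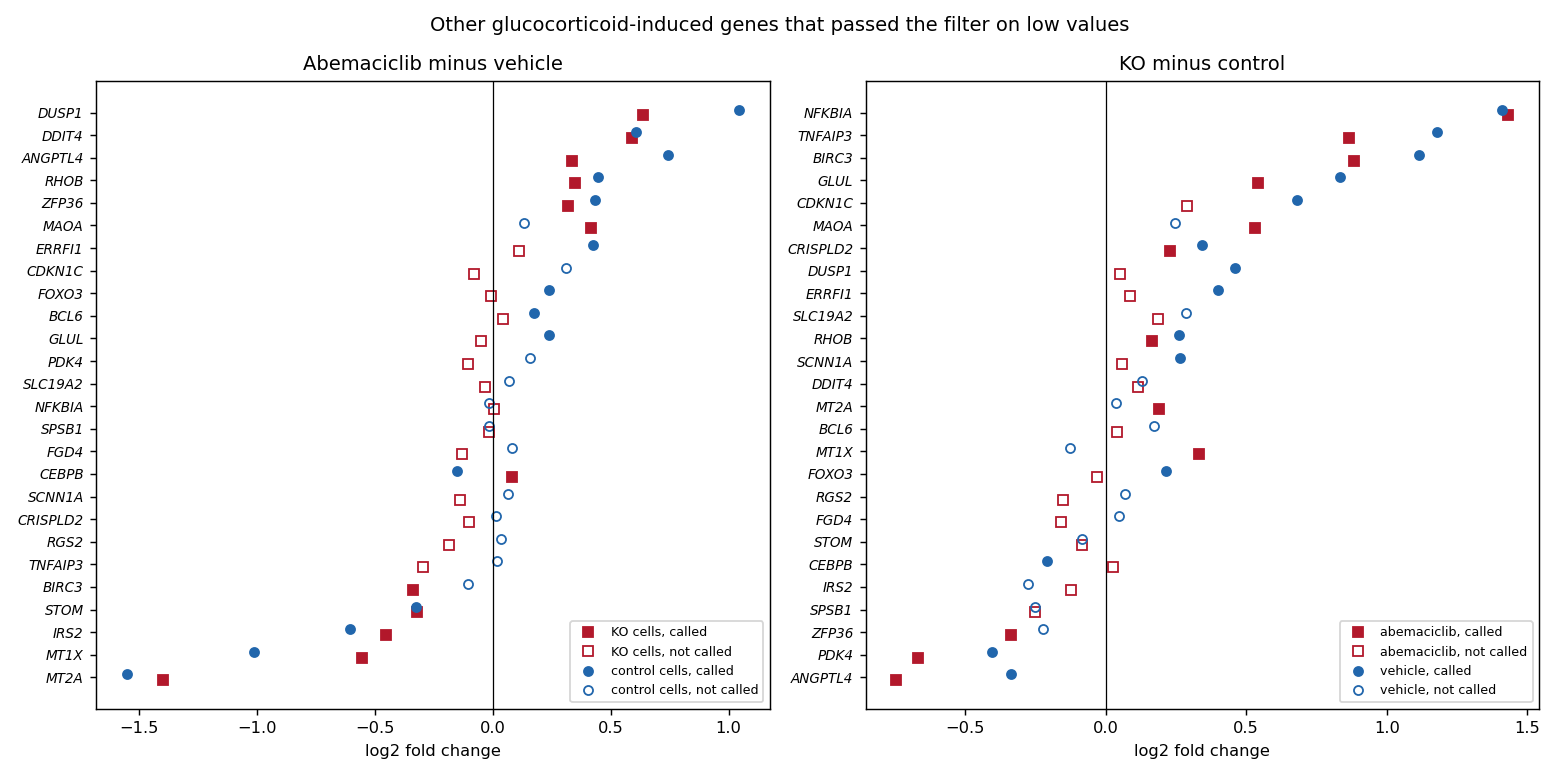
Log2 fold changes (horizontal axes) of the 26 further glucocorticoid-induced genes that passed the filter on low values, for abemaciclib minus vehicle on the left and knockout minus control on the right; squares are knockout cells (left) or abemaciclib (right), circles are control cells or vehicle, and filled symbols mark a limma adjusted p under 0.05. DUSP1 and DDIT4 lie to the right and MT2A far to the left with the drug, and NFKBIA is farthest right with the knockout (1.43 and 1.41).

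Around SGK1 itself, its relatives and the kinases that activate it were also measured. SGK3, a paralog, fell with abemaciclib by 0.54 in knockout and 0.53 in control cells, though its values were whole reads in only 2 libraries. AKT1 was higher in knockout cells by 0.11 with abemaciclib and 0.26 with vehicle. The abemaciclib call was lost after median-of-ratios rescaling and after quantile normalization (0 of 3 tested SGK and AKT genes other than SGK1 higher). Of 6 genes of the kinases and complexes that activate SGK1, 1 was higher and 0 lower in knockout cells under each treatment (limma; MAPKAP1 with abemaciclib and PDPK1 with vehicle), near the 18.6% and 24.6% of all tested genes that were higher. With abemaciclib these counts were 0 and 0 after median-of-ratios rescaling, and 0 higher and 1 lower after quantile normalization. MLST8, an mTOR subunit, fell with the drug by 0.30 in knockout and 0.36 in control cells. Of 11 tested substrates and outputs of SGK1, 1 was higher and 2 lower in knockout cells with abemaciclib (all tested genes 18.6% and 11.3%). With vehicle 3 were higher and 1 lower (24.6% and 13.1%). The drug called 0 of them higher and 3 lower in knockout cells (11% and 27.4%). In control cells it called 2 higher and 2 lower (19.6% and 31.1%). Both counts of 3 are near the shares beside them. After median-of-ratios rescaling these drug counts were 1 higher and 1 lower in knockout cells and 4 higher and 1 lower in control cells.

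NEDD4L, the ubiquitin ligase that SGK1 phosphorylates and that also targets SGK1, was higher in knockout cells, at 39.0 against 23.6 CPM with abemaciclib and 38.2 against 21.8 CPM with vehicle (log2 fold changes 0.71 and 0.78, limma adjusted p = 3.7e-11 and 2.3e-12). SCNN1B, a subunit of the epithelial sodium channel whose surface level SGK1 raises, was at 3.75 CPM in the knockout and 7.43 CPM in control cells with abemaciclib, and at 7.41 CPM in the knockout and 12.4 CPM in control cells with vehicle. It fell by 0.82 in knockout cells with abemaciclib and by 0.67 with vehicle, and with the drug by 0.82 in knockout and 0.67 in control cells.

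The receptor's chaperones and the families of the 7 genes were mixed. Of 9 chaperone genes, 4 were higher and 1 lower in knockout cells with abemaciclib, beside 18.6% and 11.3% of all tested genes. With vehicle 4 were higher and 2 lower, beside 24.6% and 13.1%. After median-of-ratios rescaling the vehicle counts were 2 and 2, and those of all tested genes 2825 higher and 2983 lower. HSP90AA1 was higher by 0.18 and 0.26 and STIP1, which links HSP70 to HSP90, by 0.27 and 0.25, both from partly shared reads. FKBP4, a relative of FKBP5 that promotes receptor transport, fell in knockout cells by 0.26 with abemaciclib and 0.13 with vehicle. Of 13 other tested FKBP genes, 1 rose and 4 fell with drug in knockout cells and 4 rose and 3 fell in control cells, against 11% and 27.4% of all tested genes in knockout cells and 19.6% and 31.1% in control cells. After median-of-ratios rescaling 5 of them rose and 1 fell in knockout cells and 5 rose and 3 fell in control cells. Of the 9 chaperone genes, 2 rose and 4 fell with drug in knockout cells (11% and 27.4% of all tested genes). In control cells 3 rose and 4 fell (19.6% and 31.1%). After median-of-ratios rescaling 4 chaperone genes rose and 3 fell in knockout cells, and 4 rose and 4 fell in control cells. PTGES3, the HSP90 co-chaperone p23, fell with the drug by 0.48 in knockout and 0.67 in control cells, and HSP90AA1 by 0.43 and 0.35, both from partly shared reads. Among 15 other tested clock genes the drug called 1 higher and 4 lower in knockout cells and 2 higher and 5 lower in control cells, and the counts lower are near those same shares of all tested genes. PER3, the paralog of PER1, fell by 0.88 and 0.46, and BHLHE40, a repressor of the clock, rose by 0.31 and 0.69. Of 12 other tested KLF genes, 4 were higher and 2 lower in knockout cells with abemaciclib (18.6% and 11.3% of all tested genes), among them KLF4 (0.47) and KLF6 (0.25) higher and KLF11 (-0.48) lower. With vehicle 5 were higher and 0 lower (limma; 3 higher and 0 lower after median-of-ratios rescaling), beside 24.6% and 13.1% of all tested genes, with KLF4 at 0.61 and KLF6 at 0.40.

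Among the 5 other tested C/EBP genes, CEBPG was lower in knockout cells by 0.18 with abemaciclib and 0.46 with vehicle, and CEBPA fell with the drug by 0.50 in knockout and 0.24 in control cells. TSC22D2 differed by 0.23 both between genotypes with abemaciclib and between drug and vehicle in knockout cells. Of 5 tested progestin-responsive genes the drug called 1 higher and 1 lower in knockout cells (2 and 0 after median-of-ratios rescaling) and 3 higher in control cells, where all tested genes had 11% and 27.4% in knockout cells and 19.6% higher in control cells. Among them was ELF5, a luminal transcription factor, at 193 against 161 CPM in knockout cells and 209 against 127 CPM in control cells.

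The genes most like each of the 6 tested ones were found by the Pearson correlation of log2(CPM + 1) over the 16 libraries among 10642 protein-coding genes. The libraries fall into the 4 groups, so these values mostly follow the group means and are a description. SGK1 was most like KRT7 (r = 0.978), DEPTOR (0.975), SPINT1 (0.975), ANK1 (0.972) and KRT19 (0.971, partly shared reads). DEPTOR, an inhibitor of mTOR, was at 41.9 CPM in the knockout and 39.5 CPM in control cells with abemaciclib and at 23.6 CPM in the knockout and 14.1 CPM in control cells with vehicle. KRT7, a simple epithelial keratin, was at 96.1 and 81.2 CPM in knockout and control cells with abemaciclib and at 56.2 and 38.1 CPM with vehicle. Both repeat the order of the 4 SGK1 means.

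CEBPD was most like ICAM1 (0.968), an adhesion molecule at 12.8 CPM in the knockout and 4.63 CPM in control cells with abemaciclib and at 9.51 CPM in the knockout and 2.77 CPM in control cells with vehicle, and STAT3 (0.965, partly shared reads). FKBP5 was most like the splicing genes DDX23 (0.951) and SFPQ (0.949, partly shared reads). TSC22D3 was most like C4orf3 (0.915) and SH3BGRL3 (0.880), and PER1 was most like GNPDA1 (0.872) and ANXA3 (0.868). The lowest correlations were those of KLF9, with P4HA1 (0.827) and KREMEN1 (0.818, partly shared reads). No gene was named for more than 1 of the 6.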

How the data were processed

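The data are 16 RNA libraries of T47D cells, which the titles in the labels put into 4 groups of 4. Per the labels' protocols, a commercial service extracted RNA, made cDNA and tagmented it. The submitters' processing notes name STAR 2.7.11, SAMtools 1.22.1, featureCounts of Subread 2.1.1, MultiQC 1.32 and GRCh38; the sources used here do not give the annotation release, strand or treatment of shared reads. The authors deposited 1 table of CPM values (counts per 1000000 assigned reads) for 78986 features, of which 92 ERCC controls were left out, and 51 symbols altered by a spreadsheet were restored by gene ID.

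The smallest step between low values, 0.0836 to 0.101 CPM, gave what 1 read is worth and the depth, and 70.2 to 71.8% of values were whole reads within 0.02 reads, too few for a test of counts. Genes whole in 8 or fewer libraries are called partly shared. Gene positions came from GENCODE on GRCh38, and genes overlapping the 7 were at most 0.255 CPM in every library. Counts at this depth carry counting error only in the floors given.

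Log2(CPM + 1) of the 16218 genes with at least 1 CPM in 4 libraries was fitted with limma 3.58.1 (R 4.3.3), trend on, with 4 group means, two-sided, with p-values adjusted by Benjamini-Hochberg over every tested gene at 0.05. The code was tested on simulated data. The 7 genes and all lists were chosen with earlier results of these data known. Beside the 7 genes, the receptors and FAH, genes were taken from the up to 4 called genes of a list with its larger direction and 2 against it per comparison that the rule named, and from those most like each of the 6 tested genes; not every listed gene is reported here. Alternatives changed the pseudocount, filter, scaling, variance trend, groups fitted, replicate block and single libraries. Same-numbered libraries did not deviate together more than others (correlations -0.0367 to 0.0603, against -0.0581 to 0.0670 for different numbers). The main fit therefore used no pairing, though a weak shared effect of the numbers is not excluded.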

Additional observations from a re-analysis of the deposited data

Results flagged for a closer look

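NR3C2 in control cells with vehicle had 1 library at 1.70 CPM, far above the other 3. It was the only such library among 44 groups of 4 libraries examined for the 7 genes, the receptors and FAH, of which chance flags about 5%. That NR3C2 group had 10 to 18 reads per library. Its spread (coefficient of variation 25.8%) was below what counting error alone gives (28.3%).

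Of the listed genes, 18 had a drug effect that differed between the genotypes by limma's interaction test, given as the log2 effect in knockout cells minus that in control cells. Of all tested genes 10.8% were called in that test (4.68% higher, 6.16% lower), so such calls were common across all genes. Among glucocorticoid-induced genes it was -0.41 for DUSP1, -0.29 for GLUL, 0.23 for CEBPB and 0.46 for MT1X. Among receptors and their partners it was -0.15 for PGR, 0.19 for PTGES3 and -0.33 for NCOA1. Around SGK1 it was -0.15 for AKT1 (a call lost after median-of-ratios rescaling), -0.26 for PDPK1 and -0.45 for NDRG2. In the clock list it was -0.43 for PER3 and -0.39 for BHLHE40. In the families of the other genes it was 0.19 for FKBP3, -0.43 for KLF11, -0.36 for KLF13 and 0.28 for CEBPG. ELF5 had -0.46 and KRT19 -0.17.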

How the results depend on the processing

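Of 264 values of the 6 tested genes and comparisons under alternatives other than left-out libraries, 250 kept their direction and side of the threshold (for SGK1 with drug and its interaction, which have no test, a value within the spread of libraries), and of 480 with 1 library left out, 453 did. After median-of-ratios rescaling and after quantile normalization the drug called 5 genes in control cells in place of 3, with KLF9 and PER1 added. The SGK1 interaction value was -0.70 with a pseudocount of 0.1, against -0.47. The replicate block called FKBP5 between genotypes with abemaciclib (adjusted p = 0.0470) and changed no other call of the 6 tested genes. The SGK1 drug difference in control cells was 2.01 and 1.81 with pseudocounts of 0.1 and 0.5. With 1 library left out, the calls ranged over 2 to 4 for knockout against control with abemaciclib and 2 to 3 with vehicle, over 3 to 4 for the drug in knockout and 2 to 4 in control cells, and over 0 to 1 for the interaction. SGK1 then ranged over 0.16 to 0.32 for the knockout with abemaciclib, 0.64 to 0.82 with vehicle, and -0.56 to -0.39 for the interaction.

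Reversed signs were near 0. PER1 between genotypes with vehicle was -5.78e-06 after rescaling and -0.00851 after quantile normalization. Quantile normalization also gave 0.0038 for the NR3C1 interaction, and 0.022 for PTGES3 between genotypes with vehicle and 0.026 for EPCAM with drug in control cells, both called lower as deposited. TSC22D3 between genotypes with abemaciclib ranged over -0.093 to 0.052 with 1 library left out, being 0.036, 0.012 and 0.052 without knockout abemaciclib replicate 1, control abemaciclib replicate 2 or 3. The FKBP5 interaction ranged over -0.022 to 0.086, being -0.022, -0.010 and -0.021 without knockout abemaciclib replicate 2, knockout vehicle replicate 3 or control abemaciclib replicate 4. The CEBPD interaction ranged over -0.0131 to 0.0435 with 1 library left out, and that of NR3C1 over -0.089 to 0.025. Their causes were not tested. Without a filter 1072 genes had an interaction call, against 1758. SGK1 at 14 to 24 reads in control libraries with vehicle, and ZBTB16 at 0 to 5 reads, limit what depth can show.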
